A study of Drosophila melanogaster with 13 samples.

Results

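The replication licensing genes were followed in whole first instar male larvae of Drosophila melanogaster that lacked one or both roX RNAs. They were chosen by name, as genes whose products mark or load replication origins: the MCM helicase subunits Mcm2, Mcm3, dpa (Mcm4), Mcm5, Mcm6 and Mcm7, the origin recognition subunits Orc1, Orc2 and Orc5, and the loading factor dup (double parked, the fly Cdt1). Of the 10 genes, 9 were matched to the 17476 identifiers in the count files through their FlyBase identifiers. The current identifier of Orc1 was not matched, and Orc1 was not analysed here. Mcm3 and Mcm6 are X-linked and the others are autosomal. No sequences are shown, since the reference used here held gene models only.

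Before S phase the origin recognition complex binds chromatin, and Cdc6 and Cdt1 then place the ring-shaped MCM2-7 helicase on it, which licenses that origin to fire a single time per cycle. Geminin holds Cdt1 back, and Cdc45 and the GINS proteins later join the ring to form the active helicase. In larvae these genes serve dividing neuroblasts and imaginal cells as well as the many larval tissues, fat body, gut and salivary gland among them, that grow by endoreplication, in which DNA is copied without mitosis. Their transcripts are typical targets of the E2F transcription factors. The roX1 and roX2 RNAs belong to the MSL complex, which raises the transcription of the single X chromosome of males. Loss of both therefore lowers X-linked genes as a class, and the licensing genes lie on both sides of that division.

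RNA-seq was available from 13 libraries of pooled whole larvae. The wildtype (3 libraries) was the strain y[1] w[1118]. The roX1 mutant (4) had the allele roX1[ex6] on a y[1] w[1118] chromosome. The roX2 mutant (3) had the allele roX2 [9-4] together with the markers y[1], cho[2] and v[1]. The roX1 roX2 mutant (3) joined both alleles, roX1[ex6] and roX2[9-4], on a y[1] w[1118] chromosome, which by the methods also carried v[1], and its mothers were heterozygous for a balancer. All mothers were crossed to males with the same GFP-marked FM7i balancer, and larvae without GFP were collected. The chromosomes were not isogenic, each roX gene was represented by a single mutant allele, and both mutants with the roX2 allele carried X-linked markers that the wildtype lacked, so allele and background cannot be told apart. The methods call the libraries biological replicates and say no more of how they were separated, so p-values measure the spread between these libraries.

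Between 45620194 and 83954893 counts fell on genes per library, with a median of 61966067. The lowest total exceeds the lowest number of reads per library given in the methods but not the highest. The median and highest totals exceed the highest number given. Whether mates were counted separately is not given in the sources used here, so a count may not be a whole fragment. The targeted genes matched the labels. The roX1 RNA stood at 974.9 to 1103 CPM (counts scaled to library size) in wildtype and at 0.742 to 4.74 CPM in the 7 libraries labelled as lacking it, and roX2 at 18.0 to 25.3 CPM in wildtype and at most 0.0478 CPM in the 6 libraries labelled as lacking it. The first principal component of autosomal genes outside the lists used here held 53.9% of their variance and set 4 libraries apart: 1 of wildtype (replicate 1), 2 of the roX1 mutant (replicates 1 and 2) and 1 of the roX2 mutant (replicate 4). In these 4 the summed level of 7 cuticle and epidermis genes of the moult (Osiris and Tweedle genes) was 1291 to 10047 CPM, against 25.7 to 43.7 CPM in the other 9. They are called the high-cuticle libraries here, and results are given with and without them where they bear on the result. None of the roX1 roX2 mutant libraries was among them. Replicate 3 of the roX2 mutant stood apart in another way, with 4 adult testis markers summing to 10.4 CPM against 0.632 to 1.46 CPM in the other 12 libraries.

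In the Ensembl annotation of genome release 6 (BDGP6.54), the X-linked genes were Mcm3 (X, 5323855 to 5326738) and Mcm6 (X, 6674387 to 6677176). Chromosome arm 3R held Mcm2 (8264970 to 8267924), Mcm5 (10788524 to 10791150) and Orc2 (13964885 to 13967075). Arm 2R held dpa (7496702 to 7500145) and dup (15376619 to 15380988), arm 2L held Orc5 (13829837 to 13831576) and arm 3L held Mcm7 (8891596 to 8894310). Mcm7 is a special case, since 2003 of its 2451 exon bases are shared with the antisense gene asRNA:CR45871. The methods give htseq-count with its default settings, under which strand is read, but the library kit named does not mark strand. In the files dUTPase, which lies wholly within an antisense gene, was at 0 counts in every library, so the strands were not told apart there. Reads that fall on both Mcm7 and its antisense gene would then count for neither, and the level of Mcm7 is not comparable with the others. The shared stretches were short in Mcm3 (64 bases), Orc2 (15), Orc5 (190) and dup (158), and Mcm2, dpa, Mcm5 and Mcm6 shared no exon base.

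Licensing genes were expressed at a low but well-counted level in every library. The lowest count in any library was 87 for Mcm7, 115 for Orc2 and 163 for Orc5, and at least 360 for each of the other 6. Compared per exon length in wildtype, Mcm6 was the highest with 13.5 ± 1.76 TPM (counts scaled by exon length and library; SD, n = 3) and its range did not overlap that of any other licensing gene. Next came dup (8.10 ± 3.77 TPM), Mcm2 (7.96 ± 0.408), dpa (7.60 ± 1.11) and Mcm5 (7.22 ± 0.782), whose ranges overlapped with their neighbours in that order. Mcm3 followed at 5.11 ± 0.309 TPM, with a range below those of Mcm2, dpa and Mcm5 and overlapping that of dup. The origin recognition subunits were lower, Orc5 at 3.29 ± 0.305 TPM and Orc2 at 2.14 ± 0.266 TPM, and Mcm7 was listed at 1.42 ± 0.203 TPM with most of its length in the antisense overlap.

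**Figure D1:**
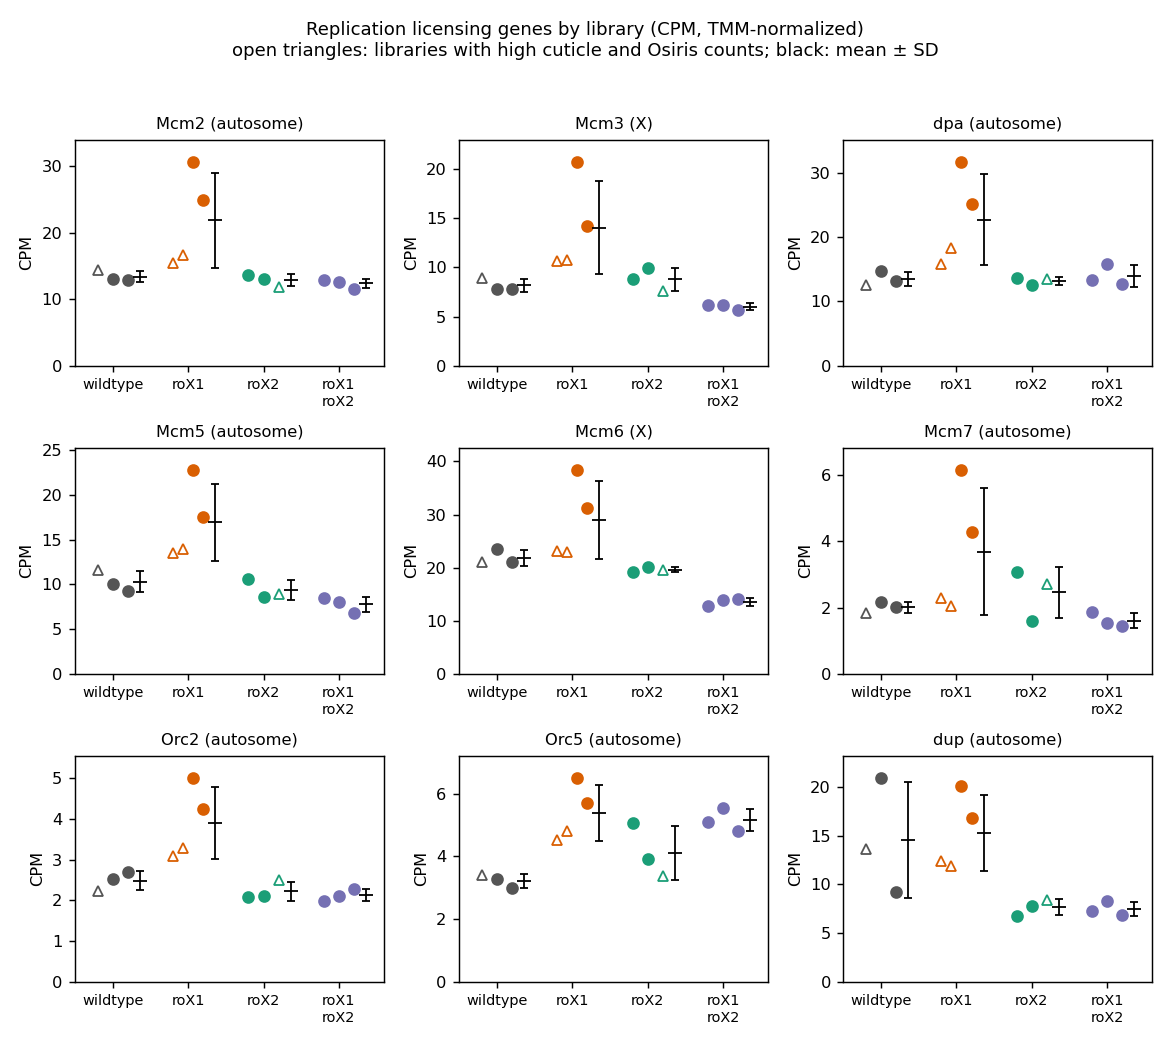
CPM (TMM-normalized) of the 9 measured licensing genes in each of the 13 libraries, grouped by genotype. Open triangles are the 4 high-cuticle libraries, filled circles the other 9, and black bars the mean ± SD. In the roX1 mutant the 2 filled circles, replicates 3 and 4, stand above the 2 triangles for every gene, and Mcm6 is lowest in the roX1 roX2 mutant.

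Without roX1, most licensing transcripts stood above wildtype, but none passed the test across all genes. Mcm2 was at 14.3, 12.97 and 12.9 CPM in the 3 wildtype libraries and at 15.5, 16.6, 30.6 and 24.9 CPM in the 4 roX1 mutant libraries. dpa was at 12.5, 14.8 and 13.2 CPM in wildtype and at 15.9, 18.3, 31.6 and 25.1 CPM in the mutant. The lowest mutant library exceeded the highest wildtype library for both genes, and the 4 mutant libraries fell into a lower and a higher pair.

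The same held for Mcm5, a helicase subunit, with 11.6, 10.1 and 9.22 CPM in wildtype and 13.5, 13.9, 22.7 and 17.6 CPM in the mutant. X-linked Mcm3 was at 8.94, 7.77 and 7.78 CPM in wildtype and at 10.6, 10.7, 20.7 and 14.2 CPM in the mutant. Orc5, a subunit of the complex that marks origins, was at 3.39, 3.28 and 2.98 CPM in wildtype and at 4.52, 4.80, 6.49 and 5.70 CPM in the mutant. With Orc2, this made 6 of 9 licensing genes with all 4 mutant libraries above all 3 wildtype libraries, where 8.57% of all genes tested showed that order. Mcm6 overlapped with wildtype through replicates 1 and 2 and Mcm7 through replicate 2, and dup lay wholly within the wildtype range.

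The log2 fold changes from wildtype were 0.71 for Mcm2 (standard error 0.21, adjusted p = 0.122), 0.78 for Mcm3 (0.22, 0.106), 0.75 for dpa (0.21, 0.102), 0.72 for Mcm5 (0.19, 0.0934), 0.65 for Orc2 (0.19, 0.121) and 0.74 for Orc5 (0.18, 0.0702), by edgeR's quasi-likelihood test with Benjamini-Hochberg adjustment. They were 0.40 for Mcm6 (0.17, 0.255), 0.88 for Mcm7 (0.37, 0.265) and 0.07 for dup (0.26, 0.929). The median over the 9 genes was 0.72, beside 0.02 over all genes tested. At an adjusted p under 0.05, 0 of 9 were called, where 1.32% of all genes were, although 8 of 9 had an unadjusted p under 0.05. DESeq2 called 6 of 9 (Mcm2, Mcm3, dpa, Mcm5, Orc2 and Orc5), but it also called 7.51% of all genes in this comparison.

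The high-cuticle libraries bore on this comparison. In all 9 licensing genes roX1 mutant replicates 3 and 4 were higher than replicates 1 and 2. With the 4 high-cuticle libraries left out, so that 2 roX1 mutant libraries met 2 wildtype libraries, the log2 fold changes grew to 1.08 for Mcm2 (adjusted p = 0.00655), 1.14 for Mcm3 (0.0175), 1.00 for dpa (0.0166), 1.04 for Mcm5 (0.0201) and 0.94 for Orc5 (0.0363), so 5 of 9 were called where 3.87% of all genes were. With the high-cuticle state as a term in the fit of all libraries, dpa (adjusted p = 0.0449) and Orc5 (0.0395) were called, where 2.35% of all genes were. dup did not pass the test in either fit.

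Of the genes that act next to the licensing genes, 6 were called by edgeR in the roX1 mutant, where 1.32% of all genes tested were. The numbers tested are given by list below. Ctf4, which ties the helicase to the polymerase, was at 4.06 to 5.15 CPM in wildtype and at 7.77 to 16.3 CPM in the mutant, a rise of 1.24 on the log2 scale (standard error 0.24, adjusted p = 0.0343). Claspin, a fork and checkpoint protein, rose by 1.10 (0.23, 0.0440), from 6.36 to 6.80 CPM in wildtype to 9.96 to 20.3 CPM in the mutant. PCNA, the sliding clamp of the replication fork, was at 13.9 to 16.7 CPM in wildtype and at 24.9 to 47.5 CPM in the mutant and rose by 1.14 (0.24, 0.0474). None of these ranges overlapped between the genotypes.

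RnrS, the small subunit of ribonucleotide reductase that makes deoxynucleotides, rose by 1.29 (standard error 0.26, adjusted p = 0.0392), from 13.6 to 26.5 CPM in wildtype to 36.3 to 60.2 CPM in the mutant. CycE, the cyclin that drives entry into S phase, rose by 0.65 (0.13, 0.0417), with 4.87 to 6.67 CPM in wildtype and 8.73 to 10.02 CPM in the mutant. X-linked Cdc7, the kinase that activates loaded MCM rings, moved the other way and fell by 0.75 (adjusted p = 0.0419), from 38.4 to 54.1 CPM in wildtype to 22.8 to 29.8 CPM in the mutant. With the replicate number as a block, the calls of Ctf4 (adjusted p = 0.0675), PCNA (0.101) and RnrS (0.0695) were lost and those of Claspin, CycE and Cdc7 were kept. Each of the 6 calls was also lost when 1 of several single libraries was left out, with the highest adjusted p between 0.0949 for Cdc7 and 0.166 for Claspin and CycE.

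By list, 5 of 5 deoxynucleotide supply genes had log2 fold changes above 0 in the roX1 mutant (1 called, median 1.10), as had 17 of 18 fork polymerase and clamp genes (1 called, median 0.52), 9 of 11 genes of the CMG helicase (the active helicase of Cdc45, MCM and GINS) and its loading (2 called higher, 1 lower, median 0.37), 5 of 6 other pre-replication complex genes (0 called, median 0.38) and 5 of 5 chromatin assembly genes (0 called, median 0.50). The 13 G1/S regulators had a median of 0.11 with CycE called. Over all genes tested, 1.32% were called by edgeR in this comparison. The 20 mitosis genes, among them the cyclins CycA and CycB, Cdk1, aurA and polo, had a median of 0.02 with 0 called (edgeR's quasi-likelihood test, with 1 higher and 1 lower at an unadjusted p under 0.05, and 1 lower by DESeq2). The medians of the S-phase lists were thus above the median of all genes, 0.02, and that of the mitosis genes equalled it to 2 decimals; the lists were not tested against each other.

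**Figure D2:**
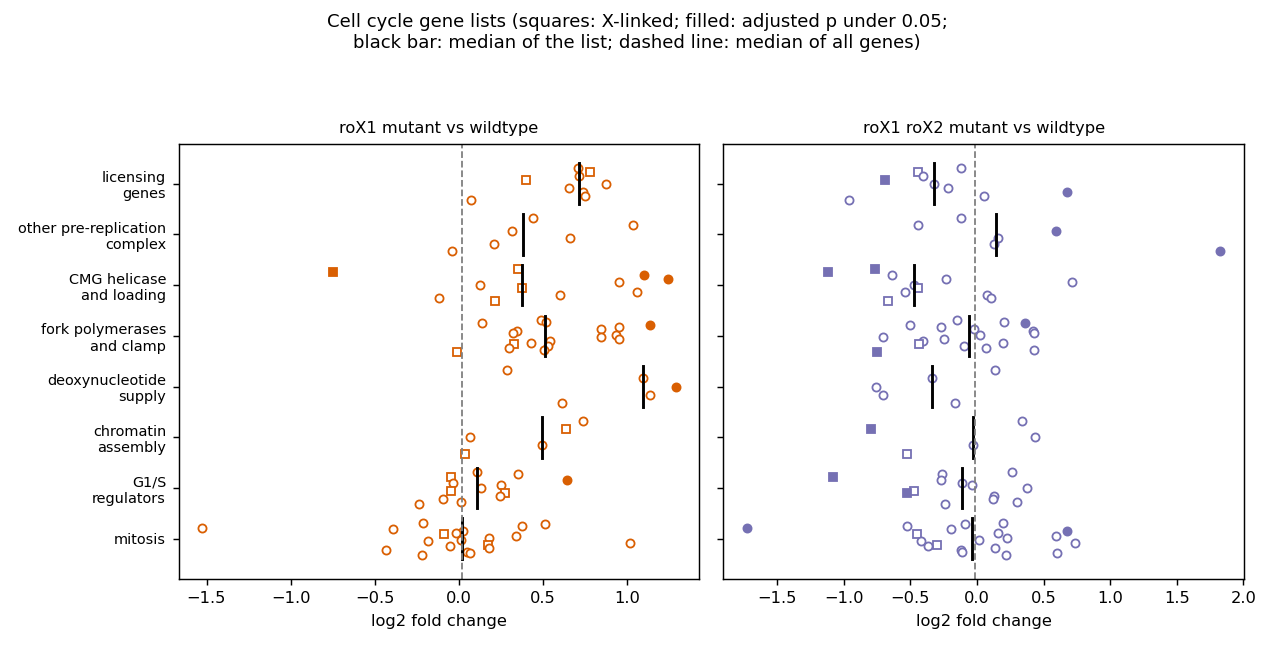
Log2 fold change from wildtype (x axis) of each tested gene in 8 cell cycle lists (y axis), for the roX1 mutant and the roX1 roX2 mutant. Squares are X-linked, filled symbols have an adjusted p under 0.05, black bars are list medians and the dashed line is the median of all genes. In the roX1 mutant the 9 licensing genes have a median of 0.72 and the mitosis genes one of 0.02.

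Markers of the tissues that could hold these transcripts were read beside them. The 4 gut markers all had log2 fold changes below 0 in the roX1 mutant (median -0.62, 0 called by edgeR), with sums of 627 to 1342 CPM against 668 to 4188 CPM in wildtype. The 5 fat body markers summed to 3687 to 5886 CPM in the roX1 mutant and 2499 to 3683 CPM in wildtype, with roX1 mutant replicates 3 and 4 highest at 5829 and 5886 CPM. This sum came almost wholly from apolpp (apolipophorin) and Col4a1 (collagen IV). Fbp1 and the larval storage protein genes Lsp1alpha and Lsp2 were each below 0.4 CPM in every library. Neither apolpp (log2 fold change 0.88, adjusted p = 0.228) nor Col4a1 (0.19, 0.872) passed the edgeR test. The 5 neuroblast markers (dpn, wor, ase, mira, insc) summed to 18.6 to 21.0 CPM in wildtype and 15.9 to 18.8 CPM in the roX1 mutant, and the 4 matched imaginal disc markers to 48.5 to 63.6 and 40.9 to 52.7 CPM. The part of tissue composition in the licensing gene values was not tested, and in whole larvae a change in the number of cells of a type and a change in RNA per cell cannot be told apart.

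**Figure D3:**
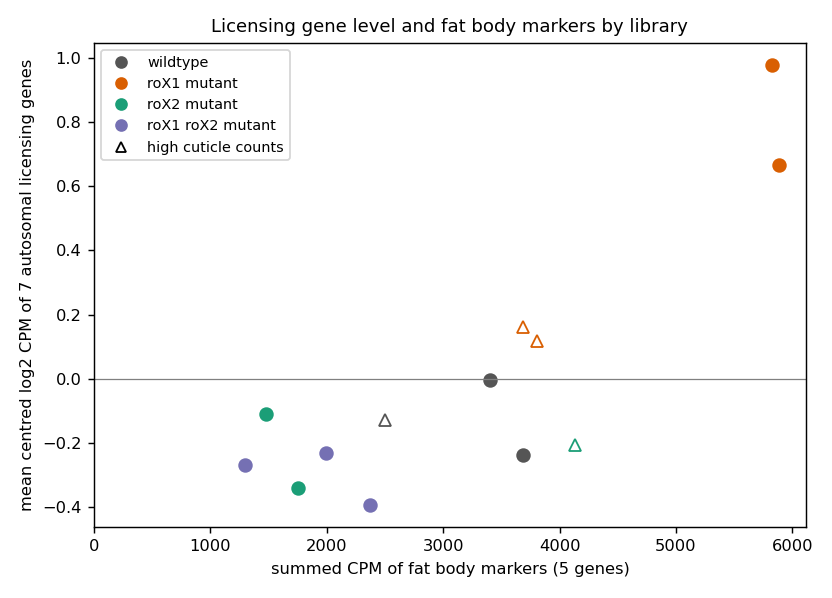
Mean centred log2 CPM of the 7 measured autosomal licensing genes (y axis) against the summed CPM of 5 fat body markers (x axis) in the 13 libraries. Colours are genotypes and open triangles the high-cuticle libraries; the roX1 mutant replicates 3 and 4 lie apart at the upper right, at 0.98 and 0.67.

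As a description over the 13 libraries, the mean centred log2 CPM of the 7 measured autosomal licensing genes was 0.98 in roX1 mutant replicate 3 and 0.67 in replicate 4, and between -0.39 and 0.16 in all others. The fat body sum was highest in the same 2 libraries. It was next highest in roX2 mutant replicate 4, at 4129 CPM, where the licensing profile was -0.21. Then came roX1 mutant replicates 1 and 2, at 3808 and 3687 CPM, with profiles of 0.12 and 0.16. The roX1 roX2 mutant libraries had fat body sums of 1296 to 2375 CPM and profiles of -0.39 to -0.23. In roX2 mutant replicate 2 the fat body sum was the second lowest, 1478 CPM, with a profile of -0.11. The relation of the 2 measures was not tested.

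Without roX2, the licensing genes stayed near wildtype, and 0 of 9 were called where 0.351% of all genes were. Their median log2 fold change was -0.06, with 3 of 9 above 0. dup stood out among them: it was at 13.6, 20.9 and 9.17 CPM in wildtype and at 6.78, 7.73 and 8.40 CPM in the roX2 mutant. The groups did not overlap, but wildtype itself ranged widely, and the change of -0.93 on the log2 scale (standard error 0.28) had an adjusted p of 0.269 by edgeR's quasi-likelihood test with Benjamini-Hochberg adjustment. It was -0.59 to -1.17 when single libraries were left out.

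X-linked Mcm6 was at 21.0, 23.6 and 21.1 CPM in wildtype and at 19.2, 20.2 and 19.5 CPM in the roX2 mutant (log2 fold change -0.16, standard error 0.18, adjusted p = 0.822). With dup, it was one of 2 licensing genes whose roX2 mutant libraries all lay below wildtype, an order shown by 5.65% of all genes. The remaining log2 fold changes ran from -0.16 for Orc2 to 0.35 for Orc5 (0.19, 0.539). No gene of the 7 other cell cycle lists was called in this comparison by edgeR; at an unadjusted p under 0.05, counts were between 0 and 2 in each direction and list, and DESeq2, which called 1.84% of all genes here, called 1 G1/S regulator and 1 mitosis gene lower.

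Without both roX RNAs, 7 of 9 licensing genes had log2 fold changes below 0 and 2 above, Orc5 and, close to 0, dpa. The median over the 9 was -0.32. Over the 7 autosomal ones it was -0.22, beside 0.05 over genes of the major autosome arms. Mcm6 was called lower and Orc5 higher by edgeR. Mcm6 was at 12.7, 13.9 and 14.0 CPM in the roX1 roX2 mutant against 21.0, 23.6 and 21.1 CPM in wildtype, and fell by 0.69 on the log2 scale (adjusted p = 0.0340). Orc5 was at 5.11, 5.53 and 4.82 CPM against 3.39, 3.28 and 2.98 CPM, a rise of 0.68 (standard error 0.19, adjusted p = 0.0446). The mutant and wildtype libraries did not overlap for either gene. By the same edgeR test 9.08% of all genes were called, 5.67% lower and 3.41% higher, and among X-linked genes 26.9% were called lower.

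Mcm3, the other X-linked subunit, was at 6.19, 6.20 and 5.65 CPM in the roX1 roX2 mutant against 8.94, 7.77 and 7.78 CPM in wildtype. Its log2 fold change was -0.44 (standard error 0.23, adjusted p = 0.264), beside a median of -0.55 over X-linked genes and 0.05 over genes of the major autosome arms. Mcm6 at -0.69 was lower than that X median and Mcm3 was not: 59.7% of X-linked genes had a lower value than Mcm3 and 36.9% a lower value than Mcm6. Both X-linked MCM genes were thus within the middle of the X-linked genes as a class.

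Among the autosomal genes, dup was at 7.26, 8.29 and 6.88 CPM in the roX1 roX2 mutant, below all wildtype libraries, at -0.96 on the log2 scale (standard error 0.28, adjusted p = 0.0545), and 8.38% of major autosome genes had a lower value. It was called in 4 of 22 alternatives: with DESeq2 (adjusted p = 0.0111), with scaling by the major autosome arms (0.0429), with the high-cuticle state as a term (0.0453) and without wildtype replicate 4 (0.0281). Mcm5 was at 8.45, 8.01 and 6.81 CPM, also below all wildtype libraries, at -0.41 (0.20, 0.233). In all, 4 of 9 licensing genes (dup, Mcm3, Mcm5 and Mcm6) had every mutant library below wildtype, as had 18.7% of all genes and 55.6% of X-linked genes, and Orc5 had every mutant library above wildtype, as had 18.5% of all genes. Mcm2 (-0.12, adjusted p = 0.783), dpa (0.05, 0.917), Mcm7 (-0.32, 0.656) and Orc2 (-0.22, 0.540) overlapped with wildtype. The direction of dpa turned with the scaling, as it was -0.014 with factors from the major autosome arms.

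These calls were close to the threshold. The call of Mcm6 held with the replicate block (adjusted p = 0.0427) and without the high-cuticle libraries (-0.73, adjusted p = 0.0132, where 9.65% of all genes were called), and in 7 of 13 fits with 1 library left out. That of Orc5 was lost with the block (adjusted p = 0.135), with the high-cuticle state as a term (0.0755) and with scaling by the major autosome arms (0.0633), held without the high-cuticle libraries (0.0429), and held in 4 of 13 fits with 1 library left out. No licensing gene was called when wildtype replicate 1 or 3, or any 1 of the 3 mutant libraries, was left out.

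**Figure D4:**
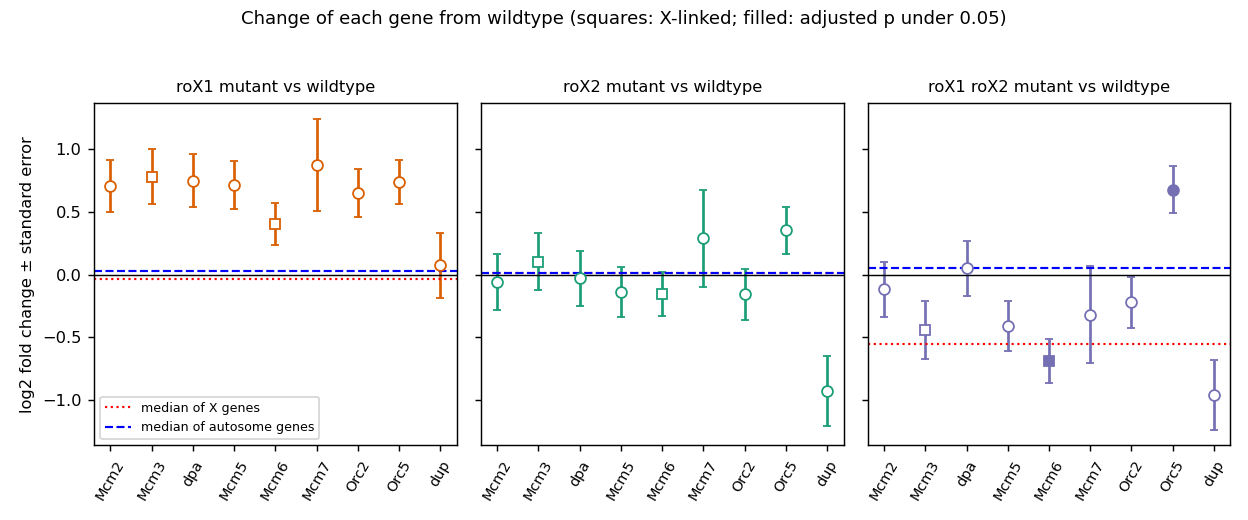
Log2 fold change from wildtype ± standard error (y axis) of the 9 measured licensing genes (x axis) in the 3 mutants. Squares are X-linked, filled symbols have an adjusted p under 0.05, and lines give the medians of X-linked (dotted) and major autosome (dashed) genes; only Mcm6 and Orc5 in the roX1 roX2 mutant are filled.

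The MCM2-7 ring needs its 6 subunits in equal number, so the level of the X-linked subunits relative to the autosomal ones was followed in each library. The mean log2 CPM of Mcm3 and Mcm6 minus that of Mcm2, dpa, Mcm5 and Mcm7 was 0.79, 0.75 and 0.77 in wildtype (0.77 ± 0.02 SD, n = 3). This balance is not a ratio of subunit numbers. CPM are not scaled by exon length, and the level of Mcm7 is not comparable with the others. Only differences between genotypes are read from this balance. It was 0.29, 0.40 and 0.53 in the roX1 roX2 mutant (0.40 ± 0.12; SD, n = 3), a difference of -0.36 with no overlap. In the roX1 mutant this balance was 0.74, 0.70, 0.55 and 0.51 (0.63 ± 0.11 SD, n = 4), also below all wildtype libraries but by less, -0.14. There the medians were -0.04 over X-linked genes and 0.03 over genes of the major autosome arms.

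In the roX2 mutant this balance was 0.55, 1.04 and 0.62 (0.74 ± 0.27; SD, n = 3), on both sides of wildtype. The highest of these was replicate 3, which also stood apart in adult testis markers, and without it the difference from wildtype was -0.18 in place of -0.03. Mcm7 spread most there, with 3.07, 1.59 and 2.72 CPM. Without Mcm7 the difference from wildtype was 0.05 in the roX2 mutant, -0.13 in the roX1 mutant and -0.41 in the roX1 roX2 mutant. These are descriptions with no test.

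Of the genes around the licensing genes, 11 were called by edgeR in the roX1 roX2 mutant, where 9.08% of all genes were. The numbers tested are given by list below. Over all genes, 5.67% were called lower and 3.41% higher. Of the 11, 6 were X-linked and all of these lower, beside the 26.9% of all X-linked genes called lower. The X-linked genes tested were 4 in the CMG list, 2 in the fork list and 3 among G1/S regulators. The mitosis and chromatin assembly lists held 2 each. Cdc45, the X-linked factor that completes the active helicase, fell by 0.77 (adjusted p = 0.0113), from 15.4 to 17.1 CPM in wildtype to 9.18 to 10.1 CPM in the mutant. X-linked Cdc7 fell by 1.12 (0.00380), from 38.4 to 54.1 CPM to 19.1 to 22.6 CPM. The other X-linked genes called were Top1 (DNA topoisomerase, -0.75, adjusted p = 0.0172), Rbf (the retinoblastoma protein that restrains E2F, -0.53, 0.0446), CycD (cyclin D, -1.08, 0.00380) and Caf1-180 (the large subunit of chromatin assembly factor, -0.80, 0.0312), all lower.

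Of the autosomal genes, rec, which encodes an MCM-related protein of meiotic recombination in flies, rose by 1.83 (standard error 0.15, adjusted p = 9.72e-05), the largest change among the genes of these lists in this mutant. It was at 2.48, 2.90 and 2.57 CPM in wildtype, 2.30 to 2.83 CPM in the single mutants and 10.1, 9.01 and 9.08 CPM in the roX1 roX2 mutant. Part of its exons, 1100 of 4131 bases, is shared with alpha-Man-IIb. Orc4, a further origin recognition subunit, rose by 0.59 (0.14, 0.0218), from 6.91 to 7.29 CPM in wildtype to 10.01 to 12.1 CPM.

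Gnf1, the large subunit of the clamp loader, rose by 0.36 (0.10, 0.0469), and Incenp, a centromere protein of mitosis, by 0.68 (0.16, 0.0277). CycB, a mitotic cyclin, fell by 1.73 (adjusted p = 0.0443), but that call rested on wildtype: CycB was at 15.3, 32.6 and 5.03 CPM there and at 4.74, 4.79 and 6.45 CPM in the mutant, so that wildtype replicate 4 lay within the mutant range. It was called in 2 of 13 fits with 1 library left out. The same 2 wildtype libraries were those highest for dup. With the replicate block, the calls of Orc4, Gnf1, Incenp, Rbf and CycB were lost, with adjusted p of 0.0691, 0.0888, 0.0526, 0.105 and 0.146, while rec, Cdc45, Cdc7, Top1, CycD and Caf1-180 were kept. With 1 library left out, rec, Cdc7 and CycD were called in 13 of 13 fits, Cdc45 in 12, Orc4 in 10, Incenp in 9, Top1 in 8, Caf1-180 in 7, Rbf in 3 and Gnf1 in 2.

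By list, the roX1 roX2 mutant had 2 of 6 other pre-replication complex genes called higher and 0 lower (median 0.14), 2 of 11 CMG genes lower and 0 higher (median -0.48), 1 higher and 1 lower of 18 fork genes (median -0.06), 0 of 5 deoxynucleotide supply genes (median -0.34; 2 lower at an unadjusted p under 0.05, and 1 lower by DESeq2, which called 18.1% of all genes), 2 lower of 13 G1/S regulators (median -0.12), 1 higher and 1 lower of 20 mitosis genes (median -0.04) and 1 lower of 5 chromatin assembly genes (median -0.03), beside a median of -0.02 over all genes. Of the 7 genes called lower, 6 were X-linked. By edgeR 5.67% of all genes and 26.9% of X-linked genes were called lower, and 3.41% of all genes higher. Muscle markers also moved in this mutant: the 4 genes summed to 8849 to 11683 CPM against 18274 to 21223 CPM in wildtype, and Mlc2, up and wupA fell by 0.93 (adjusted p = 0.00713), 0.84 (0.00861) and 0.90 (0.00603). Of these, up and wupA are X-linked, and the median over X-linked genes was -0.55. The 2 autosomal muscle genes, Mhc and Mlc2, had a median of -0.93. The 4 neuron markers summed to 1185 to 1389 CPM against 867 to 1119 CPM in wildtype, with no overlap, and all 4 had log2 fold changes above 0 (median 0.44, 0 called by edgeR). The fat body sum was 1296 to 2375 CPM and the neuroblast sum 18.3 to 20.3 CPM. The part of these shifts in the licensing gene values was not tested.

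Set directly against the roX1 mutant, the roX1 roX2 mutant had lower levels of 8 of the 9 licensing genes, all but Orc5, where 11.6% of all genes were called lower and 18.0% in either direction. The falls were 1.22 for Mcm3 (adjusted p = 0.00517), 1.12 for Mcm5 (0.00398), 1.10 for Mcm6 (0.00273), 0.88 for Orc2 (0.0119), 0.83 for Mcm2 (0.0218), 1.03 for dup (0.0226), 0.70 for dpa (0.0391) and 1.19 for Mcm7 (0.0472), in edgeR's quasi-likelihood test with Benjamini-Hochberg adjustment. For Orc5 the log2 difference was -0.06 (standard error 0.17, adjusted p = 0.843), and its levels were 4.52 to 6.49 CPM in the roX1 mutant and 4.82 to 5.53 CPM in the roX1 roX2 mutant. Without the high-cuticle libraries 8 were again called lower, as were 13.2% of all genes. With the replicate block the call of Mcm7 was lost (adjusted p = 0.0700). For the X-linked members, 12.9% of X-linked genes had a lower value than Mcm3 and 15.6% than Mcm6, beside an X median of -0.46. The count was 5 when only these 2 genotypes were fitted, and 3 when roX1 roX2 mutant replicate 2 or 3 was left out. Tissue markers moved in this comparison too. The muscle genes Mlc2 (-0.74), up (-0.81) and wupA (-0.88) and the fat body gene apolpp (-1.81, adjusted p = 0.00732) fell, and the neuron gene nSyb (0.44, 0.0304) and the disc list gene ey (0.57, 0.0350) rose. Of these, up and wupA are X-linked, and apolpp and ey lie on chromosome 4. The neuron list had 1 of 4 genes below 0, the X-linked elav (-0.11). Of 4 tested fat body genes, 2 were above 0, the scarce Lsp1alpha and Fbp1. All 4 tested disc list genes were above 0. The part of these markers in the licensing gene values was not tested.

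Against the roX2 mutant, the roX1 roX2 mutant showed 0 of 9 licensing genes called by edgeR, where 7.67% of all genes were. At an unadjusted p under 0.05 there were 2, the X-linked Mcm3 (log2 difference -0.54, adjusted p = 0.178) and Mcm6 (-0.53, adjusted p = 0.0934), beside a median of -0.57 over X-linked genes. DESeq2 called 1, where it called 15.0% of all genes. For dup the difference was -0.03 (standard error 0.28, adjusted p = 0.965). Its levels were 6.78 to 8.40 CPM over all 6 libraries that lacked roX2 and 9.17 to 20.9 CPM in wildtype. Every mutant library lay below wildtype for 5.65% of all genes in the roX2 mutant and for 18.7% in the roX1 roX2 mutant. The share over the 6 libraries together was not counted. In the main edgeR fit dup was not called against wildtype in either of these mutants.

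The single mutants were also compared with each other, a contrast added after the data were seen. All 9 licensing genes had log2 differences above 0 in the roX1 mutant relative to the roX2 mutant (median 0.77), from 0.39 for Orc5 (adjusted p = 0.232) to 1.00 for dup (0.0770). Mcm5 was called, with a difference of 0.86 (standard error 0.19, adjusted p = 0.0429), where 2.28% of all genes were called, and it was lost with the replicate block (0.0833). Without the high-cuticle libraries 7 of 9 were called, all but Mcm7 and Orc5, where 8.1% of all genes were.

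The interaction term asked whether the effect of losing roX2 differed between larvae with and without roX1. It was below 0 for all 9 licensing genes and passed the test for Mcm3, at -1.33 (standard error 0.32, adjusted p = 0.0491), where 3.01% of all genes were called and 2.35% with a negative term. X-linked genes as a class had a median term of -0.52, with 14.9% of them below Mcm3 and 25.9% below Mcm6. Mcm6 (-0.94, adjusted p = 0.0650) and Mcm5 (-0.99, 0.0762) came next, and dup had the term nearest to 0 (-0.10, 0.898). Without the high-cuticle libraries 4 were called, where 4.21% of all genes were: Mcm3 (-1.76, adjusted p = 0.0109), Mcm2 (-1.16, 0.0159), Mcm6 (-1.13, 0.0178) and Mcm5 (-1.32, 0.0254). This term and the 3 comparisons with wildtype share control libraries.

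The genes whose pattern over the 13 libraries was most like the mean profile of the 7 autosomal licensing genes were looked for among 9615 genes that averaged 100 counts or more and were in no list used here. The closest were scf, with a root mean square difference of 0.13 on the log2 scale, cutlet (0.13), RanGAP (0.15), hd (0.15), CG1371 (0.16), CG10802 (0.16), GstT1 (0.16) and AlaRS-m (0.17). The median difference over the candidates was 0.47, and the profile itself spanned 1.37 from its lowest to its highest library. This range came from roX1 mutant replicates 3 and 4, so the likeness rests largely on those 2 libraries.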

How the data were processed

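RNA-seq counts per gene were deposited by the authors, who mapped paired-end reads from poly(A) libraries of pooled whole larvae with STAR 2.5.1b to genome release 6.09 and counted them with HTSeq 0.6.1; the counts were deposited raw. Between 10.3% and 23.8% of each library was unassigned to genes and left out. Of 17476 identifiers 17242 were named through BDGP6.54, 13 of them by old identifiers in the gene table of the study. The 13975 genes with 20 or more summed counts entered edgeR 4.0.16 (R 4.3.3; TMM, 4 genotypes in one quasi-likelihood fit, Benjamini-Hochberg adjustment over all genes, threshold 0.05). CPM are TMM-normalized; marker sums and TPM rest on the same counts, and roX levels were scaled by counts on genes alone. DESeq2 1.42.0, other scalings, filters, a replicate block, the high-cuticle state as a term or its libraries left out, and each library left out in turn were the alternatives; leaving out Mcm7 and the contrast of the single mutants were added after the data were seen. Same-numbered libraries deviated together in wildtype and the roX1 mutant (correlations across genes 0.52 to 0.64, 3 pairs) and in the roX2 and roX1 roX2 mutants (0.14 to 0.21, 3 pairs), from the data alone; wildtype and roX1 mutant libraries of unlike number on the same high-cuticle side correlated as well (0.53 to 0.63), and same-numbered pairs of the other genotypes ran from -0.57 to 0.30, so the number is not shown to mark a shared batch. The members and gene lists were chosen with earlier results of these data known. Named were all members, each list gene called against wildtype (at most 6 a list and comparison) and the 8 genes of most like pattern. Orc1, nos, wg, RPA2 and Top2 were not matched; Orc3 and dUTPase, which lie wholly within overlapping genes, had 0 counts. Promoter motifs were not analysed here. The fit was tested on simulated counts.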

Additional observations from a re-analysis of the deposited data

Results flagged for a closer look

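The effect of losing roX2 on Mcm3 differed between larvae with and without roX1, by a test of the difference itself: the interaction was -1.33 on the log2 scale (standard error 0.32, adjusted p = 0.0491, edgeR's quasi-likelihood test with Benjamini-Hochberg adjustment over all genes). Mcm3 had 8.17 ± 0.67 CPM in wildtype (SD, n = 3), 8.77 ± 1.21 in the roX2 mutant (n = 3), 14.0 ± 4.71 in the roX1 mutant (n = 4) and 6.01 ± 0.31 in the roX1 roX2 mutant (n = 3). Mcm3 is X-linked, and X-linked genes had a median interaction of -0.52, with 14.9% of them below Mcm3. All 3 roX1 roX2 mutant libraries were below all 4 roX1 mutant libraries, and the roX2 mutant and wildtype libraries overlapped. Over fits with 1 library left out the adjusted p ran from 0.0431 to 0.132 and the term was called in 4 of 13, with the replicate block it was 0.0667, and without the 4 high-cuticle libraries it was 0.0109.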

How the results depend on the processing

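Of the licensing genes called against wildtype, the number changed with the setting as follows. For the roX1 mutant (0 of 9) it was 6 with DESeq2, 2 with the high-cuticle state as a term and 5 without the high-cuticle libraries. For the roX1 roX2 mutant (2 of 9) it was 3 with DESeq2 (dup added), 1 with no filter on low counts and 1 with the replicate block, and with scaling by the major autosome arms or the high-cuticle term the 2 were Mcm6 and dup in place of Mcm6 and Orc5. Against the roX1 mutant (8 of 9) the roX1 roX2 mutant had 5 when only these genotypes were fitted, 7 with no filter and 7 with the replicate block, and against the roX2 mutant (0 of 9) it had 1 with DESeq2 and 1 with the high-cuticle term. The interaction (1 of 9) had 3 with DESeq2, 2 with scaling by the major autosome arms, 2 with the high-cuticle term, 4 without the high-cuticle libraries, and 0 with DESeq2 size factors, with no filter and with the replicate block. The roX1 against the roX2 mutant (1 of 9) had 6 with DESeq2, 2 with a mean of at least 10 counts, 4 with the high-cuticle term, 7 without the high-cuticle libraries, and 0 with only these genotypes or the replicate block. When single libraries were left out, these counts ran from 0 to 1 (roX1 mutant), 0 to 0 (roX2 mutant), 0 to 2 (roX1 roX2 mutant), 3 to 8 (against the roX1 mutant), 0 to 1 (against the roX2 mutant), 0 to 2 (interaction) and 0 to 2 (roX1 against roX2 mutant). The share of all genes called also changed with the setting, so these counts are not a result about the licensing genes alone. For the roX1 mutant against wildtype it was 1.32% by edgeR and 7.51% with DESeq2. Without the high-cuticle libraries it was 8.1% in place of 2.28% between the single mutants, and 4.21% in place of 3.01% for the interaction. For these 2 contrasts the shares with DESeq2 and the high-cuticle term are not given here. Among single genes against wildtype, directions turned where values were near 0: dpa in the roX1 roX2 mutant (0.05) was -0.014 with scaling by the major autosome arms, -0.042 with the replicate block, -0.066 with the high-cuticle term, -0.0082 without the high-cuticle libraries and -0.052 to 0.123 with libraries left out; with libraries left out dup in the roX1 mutant was -0.17 to 0.41, Mcm3 in the roX2 mutant -5.8e-05 to 0.20 and dpa in the roX2 mutant -0.080 to 0.021; and Mcm2 in the roX2 mutant was 0.0101 without the high-cuticle libraries. The difference in MCM balance from wildtype ran, with libraries left out, from -0.18 to -0.10 in the roX1 mutant and from -0.43 to -0.31 in the roX1 roX2 mutant; in the roX2 mutant (-0.032) it ran from -0.18 to 0.061 and was 0.047 with medians of subunits and 0.046 without Mcm7. The cause of these changes was not tested. Library numbers are known only as labels. With 3 or 4 libraries a genotype, and 87 to 289 counts for Mcm7, many differences would not be called: in simulated counts for the 3 comparisons with wildtype (13798 to 13813 genes), 16% to 31% of 100 genes changed 2-fold were recovered, and 84% to 88% of those changed 4-fold.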
